A study of Mus musculus with 14 samples.

Results

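Primordial germ cells, the founders of sperm and eggs, are set aside from the early embryo by a small group of regulators, several of which are also transcribed in embryonic stem (ES) cells. The 7 genes described here, chosen by name from the 23298 genes of the expression table, were *Prdm14*, *Prdm1* and *Tfap2c*, which encode transcription factors, *Dppa3*, *Nanos3* and *Dnd1*, which encode proteins acting on chromatin or RNA, and *Kit*, which encodes a receptor. All 7 were found in the table and passed the filters on low values. In the embryo, BMP and WNT signals from neighbouring tissue lead cells of the epiblast to switch on *Prdm1*, *Prdm14* and *Tfap2c*. These factors silence somatic genes, restore the pluripotency network and lower DNA methylation. In ES cells, PRDM14 is known for its part in keeping the naive state, where it represses *Dnmt3b* and FGF receptor genes.

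The data are RNA sequences of 14 ES cell lines of the mouse, each derived from a separate blastocyst of a cross between C57BL/6J (B) and CAST/EiJ (C) mice. Lines of the BC cross have a C57BL/6J mother and a CAST/EiJ father, and CB lines the reverse. There were 3 XX and 3 XY lines of each cross and, from the BC cross, 2 XO lines, which have a single X chromosome, arose during derivation of the lines and have no CB counterpart. All lines were grown in serum with leukemia inhibitory factor (LIF) on inactivated fibroblasts, which were depleted in 2 steps before RNA was taken. All are thus untreated F1 hybrids of the same strains, and none of the cells had been induced to become germ cells. The CB XX lines are numbered here by the order of their columns.

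Values are read signals per gene that the authors had scaled to a common depth, called scaled reads below. They sum to between 28150900 and 30657800 in a line. In each line the low values are multiples of a step that would be worth 1 read, and on that basis the lines hold 11904414 to 69646230 reads, with at most 21894776 in the CB XY lines and at least 29242347 in the BC XX lines. A gene at 3 reads would have a value between 1.22 and 7.37. These figures cover counting error only. Levels of different genes were compared only per kilobase of annotated exon.

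The labels were checked first with Y-linked RNA. *Uty* had 2088, 1529 and 945 scaled reads in the BC XY lines and 1149 in CB XY 1. CB XY 2 and 3, although labelled XY, had only 19.6 and 45.4, inside the range of 12.8 to 195 of the XX lines. Other Y-linked genes separated the labels less well. *Ddx3y* had 1023.6 scaled reads in BC XX 3 and 1084.5 in CB XY 1, against 27.0 and 125.9 in CB XY 2 and 3. *Eif2s3y* and *Kdm5d* were highest in BC XX 3 (317.3 and 122.8), above BC XY 1 (254.8 and 28.7), the highest XY line for both. The source of Y-linked RNA in the BC XX lines was not tested. The median of 606 X-linked genes was -0.46 and -0.16 relative to their mean over all lines (log2) in CB XY 2 and 3. It ran from -0.41 to -0.15 in the other XY and the XO lines, and from 0.28 to 0.48 in the XX lines. Several comparisons that use these lines are therefore given with and without them. Fibroblast RNA also differed between lines. The 25 genes of a fibroblast list summed to 109000 to 224000 scaled reads in the BC XX lines and to 10100 to 41700 in the other 11 lines, and none of the 25 was below a value of 10 in any BC XX line. The BC XX lines thus stood apart from all others, and their 8 ES cell markers summed to 63500 to 87600 scaled reads against 82400 to 120000 elsewhere. In bulk RNA, fewer cells of a type and less RNA per cell cannot be told apart.

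Per kilobase of exon, *Dppa3* had the highest level of the 7 genes, with a mean of 3145 scaled reads per kilobase over the 14 lines and a lowest line of 2044. It was followed by *Tfap2c* with a mean of 500.5 and a range of 274 to 779 scaled reads per kilobase. *Kit* had a mean of 348, *Prdm14* of 225, *Prdm1* of 197, *Dnd1* of 104 and *Nanos3* of 49.4 scaled reads per kilobase. *Dppa3* was above *Tfap2c* without overlap of the lines, whereas the ranges of every other pair of neighbours in this order overlapped. *Nanos3* was the only one of the 7 near the limit of detection, with 6 reads in CB XY 2 and 88 in BC XX 2.

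**Figure D1:**
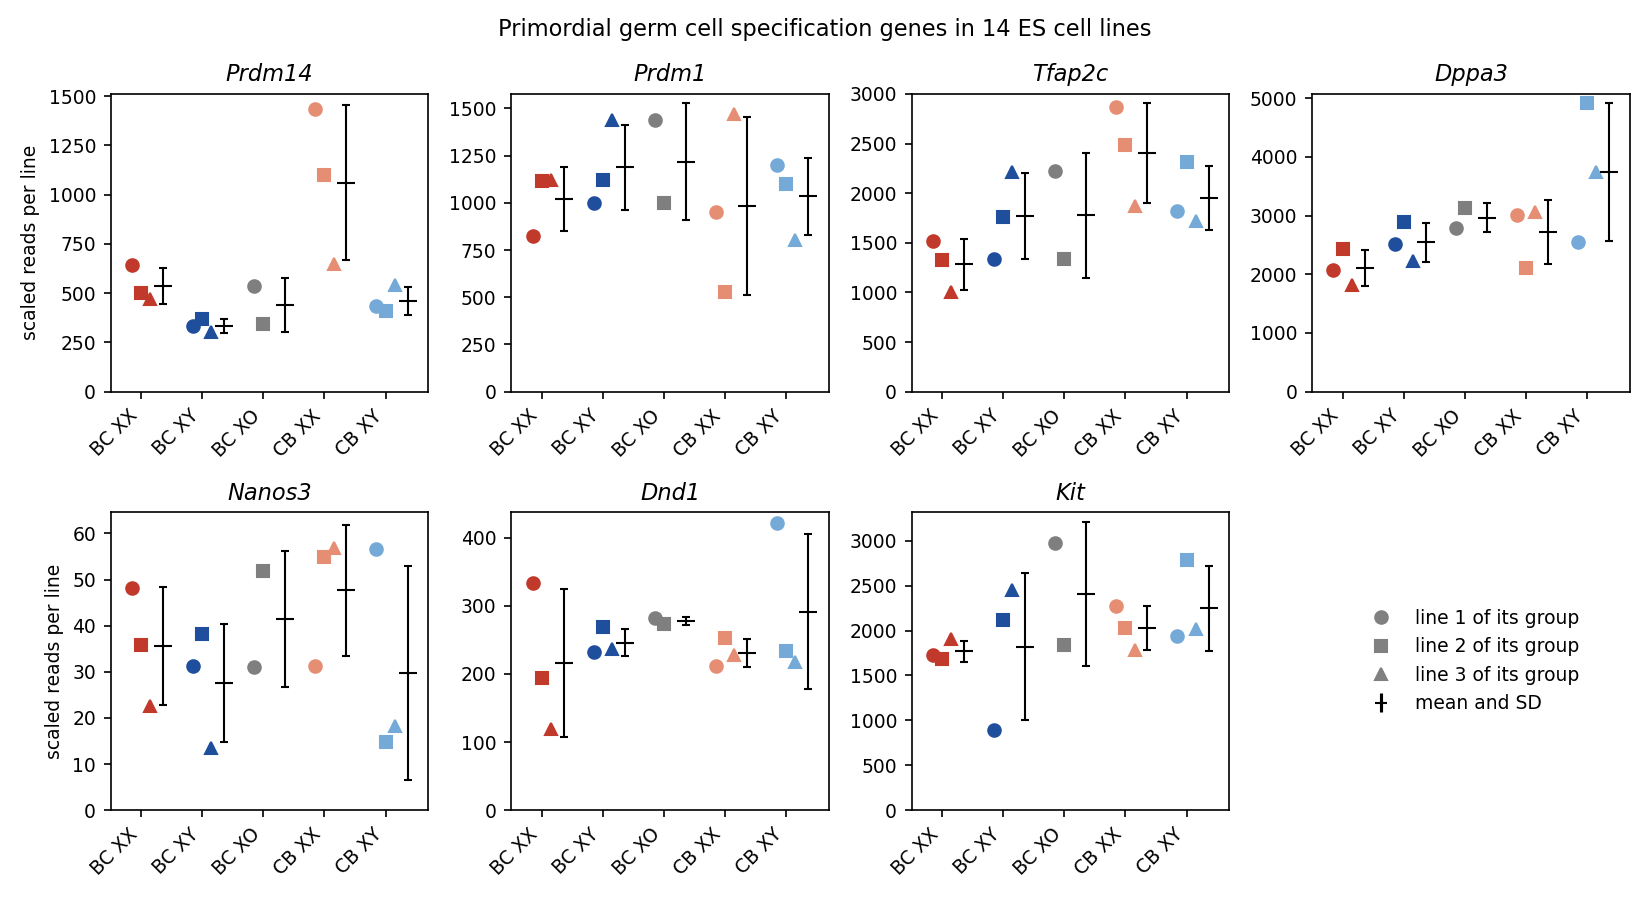
Scaled reads per line for each of the 7 genes, with the groups on the horizontal axis, circles, squares and triangles for lines 1, 2 and 3 of a group, and black bars for the mean and SD (3 lines, 2 for BC XO). The CB XX lines reach 1434 scaled reads for *Prdm14*, where no XY line exceeds 541, but BC XX 2 and BC XX 3 have 499 and 470. Over both crosses, XX and XY lines thus overlap for all 7 genes. Within each cross, they overlap for the 6 genes other than *Prdm14*.

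*Prdm14* encodes a PR domain zinc finger protein that is needed for germ cell specification. It lies on the minus strand of mm9 at chr1:13103538-13117244. The study measured it by quantitative PCR as well, in an assay that was not limited to the sequenced lines. It reported higher *Prdm14* levels in XX ES cells, by its own tests. The primer pair of that assay is shown because it marks which part of the transcript was read. Capitals mark the bases of the forward primer that fall in exon 7 of the 8 exons, beyond its junction with exon 6.
Prdm14 forward: cggccctacctgTGTTCAA
Prdm14 reverse: atgtgcttgttcaggctggaa
The forward primer matches chr1:13108844-13108855 in exon 6 (12 bases) and chr1:13105956-13105962 in exon 7 (7 bases), and the reverse primer, on the other strand, matches chr1:13105910-13105930 in exon 7. The product is 65 bases long on the annotated transcript, spans the junction, and each primer matches the protein-coding transcripts of 1 gene in the annotation.

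The question put to *Prdm14* was whether its level follows the number of X chromosomes. In the CB cross, the XX lines had 1434, 1102 and 648 scaled reads and the XY lines 434, 408 and 541. All 3 XX lines were above every XY line, and CB XX 3 was much nearer to the XY lines than the other two. *Prdm14* was 2.19-fold higher in CB XX lines (log2 fold change 1.13 ± 0.27 SE, 95% interval 0.56 to 1.70, n = 3 and 3, limma, Benjamini-Hochberg adjusted p = 0.0328 over all genes). It was the 1 gene of the 7 that passed the false discovery rate (FDR) of 0.05 in this comparison, in which 3.57% of the 16261 genes tested passed. Without the lines labelled CB XY 2 and 3, the log2 fold change was 1.21 and the adjusted p 0.213, with only CB XY 1 left in its group.

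That call also depended on single lines. Leaving out CB XY 1, CB XY 2 or CB XY 3 gave adjusted p-values of 0.112, 0.117 and 0.0506, leaving out CB XX 1 or CB XX 2 gave 0.0885 and 0.139, and leaving out CB XX 3 gave 0.00716. The log2 fold change stayed between 0.88 and 1.45. In CB XX 1, the line with the most *Prdm14*, the median of the 922 chromosome 1 genes was 0.30 above their mean over all lines on the log2 scale, whereas it was between -0.14 and 0.14 in the other 13 lines. When each chromosome's median was subtracted in each line, the log2 fold change of *Prdm14* between CB XX and CB XY lines was 0.92 (adjusted p = 0.0739). CB XX 2, with 1102 scaled reads of *Prdm14*, had a chromosome 1 median of -0.0006.

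In the BC cross, *Prdm14* had 642, 499 and 470 scaled reads in the XX lines and 335, 371 and 301 in the XY lines. Again each XX line was above each XY line, a pattern that 14.6% of all genes tested showed in this direction (11.7% in the CB cross). The log2 fold change of 0.66 (95% interval 0.09 to 1.24) did not pass the test (adjusted p = 0.157). The BC XO lines had 537 and 344 scaled reads, 1 inside the range of the XX lines and 1 inside that of the XY lines. *Prdm14* differed by 0.31 on the log2 scale between BC XX and BC XO lines (95% interval -0.34 to 0.95, adjusted p = 0.575) and by 0.36 between BC XO and BC XY lines (95% interval -0.28 to 1.00, adjusted p = 0.999). The 2 XO lines thus did not place the gene with either group.

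Over the 6 XX and 6 XY lines of both crosses, *Prdm14* had a log2 fold change of 0.90 (95% interval 0.34 to 1.46, unadjusted p = 0.004, adjusted p = 0.0629), and 4 of 6 XX lines were above every XY line. With the cross as a covariate the fold was the same and the adjusted p was 0.0113. It was 0.0236 with the fibroblast level as a covariate (log2 fold change 1.33), 0.0386 without BC XX 3, and between 0.0551 and 0.124 under every other alternative tried. The effect of sex on *Prdm14* differed between crosses by -0.47 on the log2 scale (95% interval -1.28 to 0.34, adjusted p = 0.769), so that a difference between the crosses was not shown.

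Between the crosses, the log2 fold change of *Prdm14* in BC XX against CB XX lines was -0.92 (95% interval -1.49 to -0.34), which did not pass the test (adjusted p = 0.0533). All 3 CB XX lines were above the 3 BC XX lines, an order that 12.6% of all genes showed, the nearest pair being 648 and 642 scaled reads. The adjusted p was 0.00624 without CB XX 3, 0.0386 without BC XX 1 and 0.0448 with chromosome medians subtracted, but 0.676 with the fibroblast level as a covariate (log2 fold change -0.66). BC XY and CB XY lines differed by -0.45 (95% interval -1.02 to 0.13, adjusted p = 0.394). The fibroblast level separated BC XX from CB XX lines completely, and its part in this difference was not tested beyond that covariate.

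**Figure D2:**
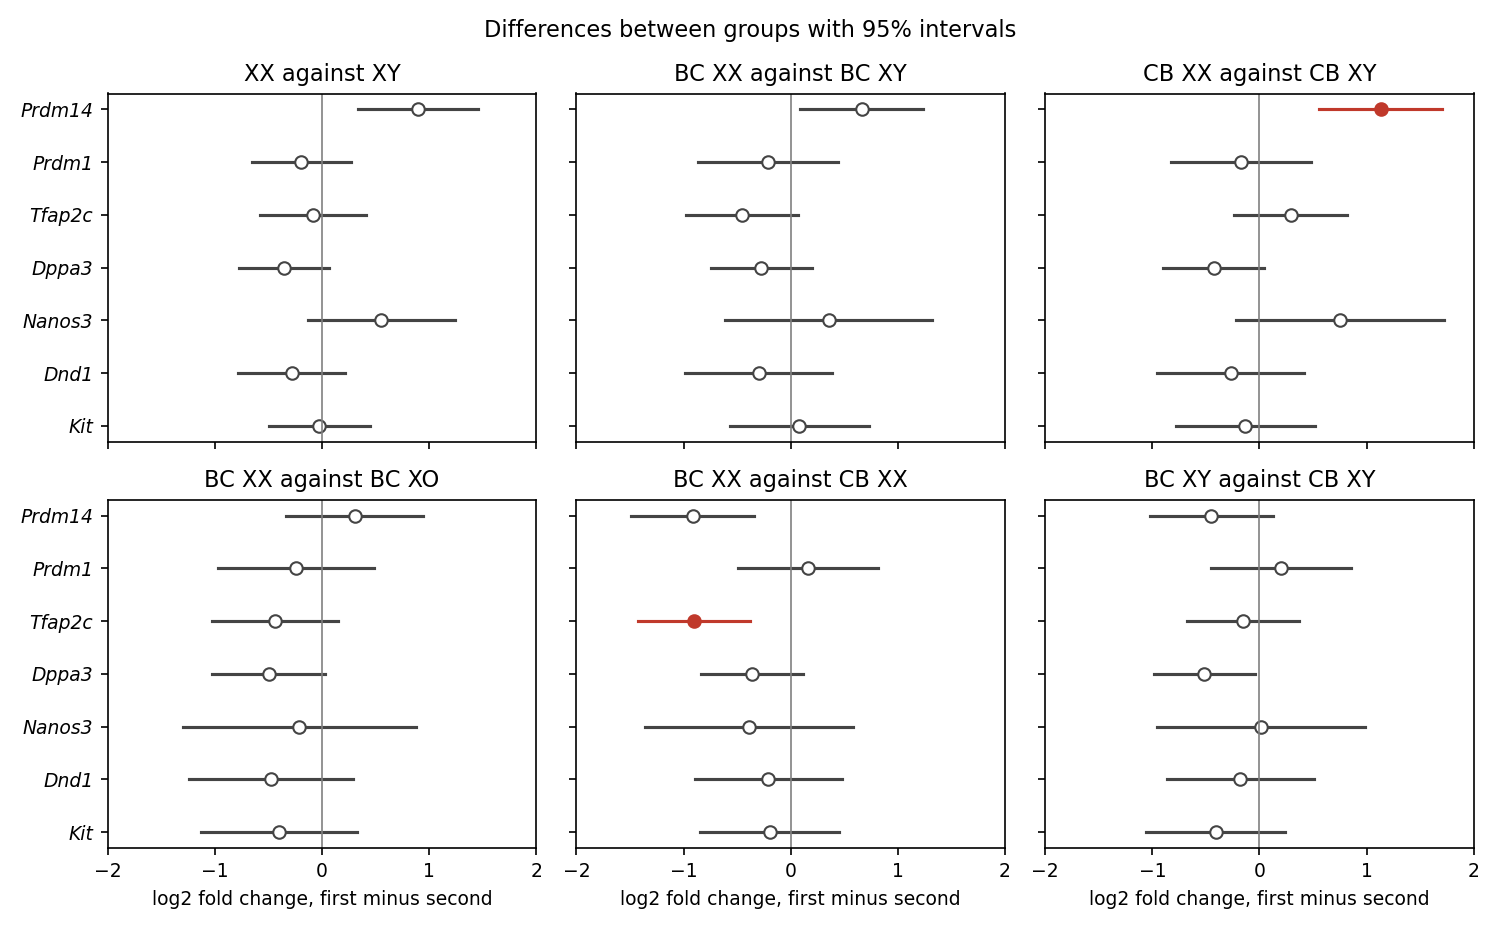
Log2 fold changes of the 7 genes (first group minus second) in 6 comparisons, with lines for the 95% interval and filled red points where the adjusted p was below 0.05. The filled points are *Prdm14* in CB XX against CB XY (1.13) and *Tfap2c* in BC XX against CB XX (-0.90).

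Over all 7 genes, the counts of calls were small. By limma at the FDR of 0.05, 0 of the 7 passed in XX against XY lines (5.21% of 15311 genes passed), as within the BC cross for XX against XY (5.7%), XX against XO (4.66%) and XO against XY lines (0.00615%). The interaction of sex and cross (0.0738% of all genes) and the XY lines of BC against CB (0.64%) gave 0 as well. At an unadjusted p under 0.05, 1 of the 7 passed in XX against XY (23.1% of all genes), 1 in BC XX against BC XY (23.1%), 0 in XX against XO (23.7%) and in XO against XY (1.49%), 1 in the interaction (9.05%) and 1 in BC XY against CB XY (18.7%). Beside limma, no other tool was run. In BC XX against CB XX 1 of 7 passed, beside 7.15% of all genes. The median log2 fold change of the 7 was -0.08 for XX against XY, against -0.03 over all genes, and over the 8 comparisons it ran from -0.40 in BC XX against BC XO (-0.02 over all genes) to 0.22 in BC XO against BC XY (0.01 over all genes). In BC XX against CB XX it was -0.36, against -0.01.

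*Prdm1* encodes BLIMP1, the repressor of the somatic programme in germ cell precursors, on the minus strand at chr10:44156983-44248307. Its scaled reads were 827, 1117 and 1122 in BC XX lines, 1000, 1123 and 1440 in BC XY lines, and 1437 and 998 in BC XO lines. They were 951, 526 and 1469 in CB XX lines and 1200, 1098 and 805 in CB XY lines. The CB XX lines held both the lowest and the highest of the 14 values. XX and XY lines differed by a log2 fold change of -0.19 (95% interval -0.66 to 0.27, adjusted p = 0.618), and over all 8 comparisons the fold changes ran from -0.24 to 0.20 with no adjusted p under 0.618. In CB XX 2, the lowest line, the median of the 752 chromosome 10 genes was 0.22 below their mean on the log2 scale, the lowest of the 14 lines. After subtraction of chromosome medians, the SD of *Prdm1* over the 14 lines went from 0.39 to 0.32 on the log2 scale.

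*Tfap2c* encodes the transcription factor AP-2 gamma, which acts downstream of BLIMP1 in germ cells and in trophoblast. It lies at chr2:172375093-172384122 on the plus strand. Its scaled reads were 1519, 1324 and 1007 in BC XX lines, 1339, 1764 and 2210 in BC XY lines, and 2218 and 1332 in BC XO lines. They were 2865, 2482 and 1866 in CB XX lines and 1816, 2319 and 1720 in CB XY lines. CB XX lines had the highest mean and BC XX lines the lowest, with no overlap between them, an order that 12.6% of all genes showed.

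*Tfap2c* was lower in BC XX than in CB XX lines (log2 fold change -0.90 ± 0.24 SE, 95% interval -1.43 to -0.38, n = 3 and 3, limma, adjusted p = 0.0419). The call was lost without BC XX 2, BC XX 3, CB XX 1 or CB XX 2 (adjusted p = 0.0922, 0.219, 0.194 and 0.115), with log2 fold changes of -0.93, -0.74, -0.76 and -0.87. With chromosome medians subtracted it was -0.88 (adjusted p = 0.0508). With the fibroblast level as a covariate the log2 fold change was -0.21 (adjusted p = 0.844). For XX against XY the log2 fold change was -0.45 in BC (95% interval -0.98 to 0.07, adjusted p = 0.291) and 0.29 in CB lines (95% interval -0.23 to 0.81, adjusted p = 0.565), neither of which passed. The difference between these effects was -0.74 (95% interval -1.49 to -0.0035, unadjusted p = 0.0491, adjusted p = 0.548) and it too did not pass. In the same lines, 8 trophoblast markers summed to 837 to 4290 scaled reads in CB XX lines and 5320 to 9090 in BC XX lines, and their part in the *Tfap2c* values was not tested.

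**Figure D3:**
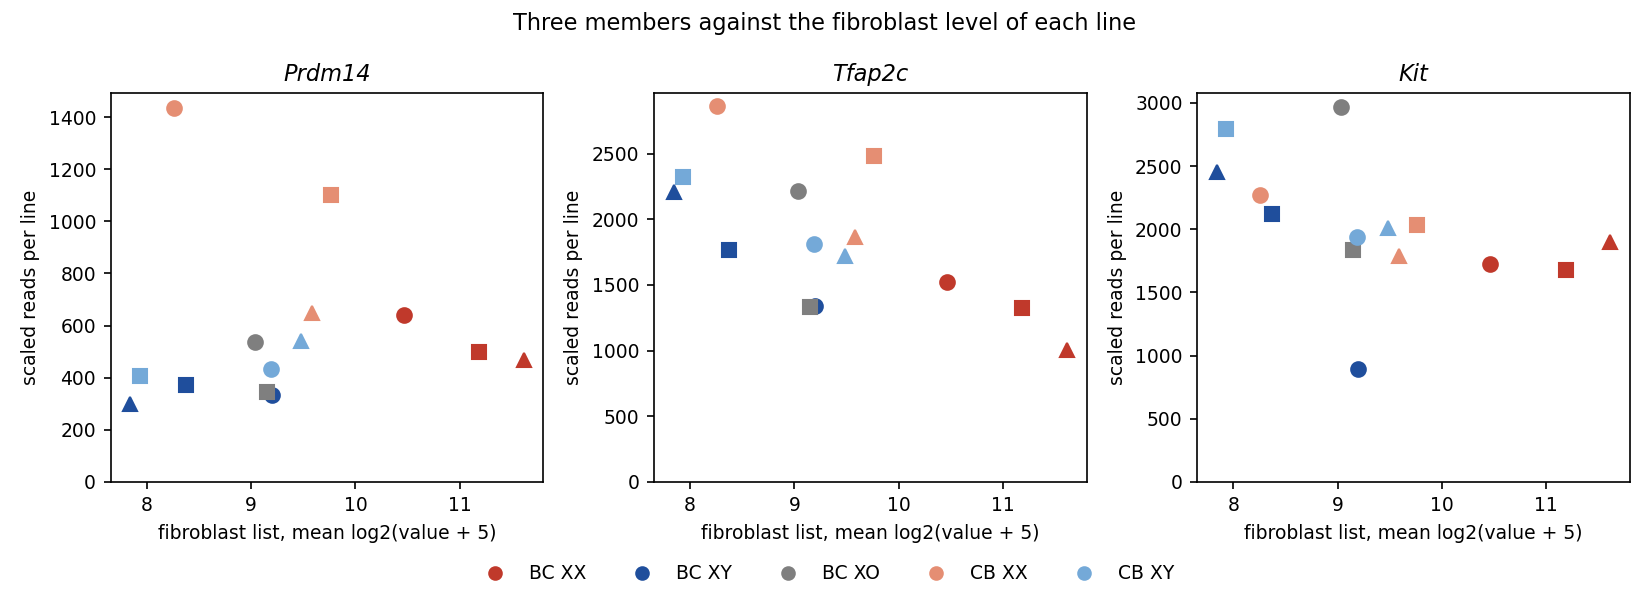
Scaled reads of *Prdm14*, *Tfap2c* and *Kit* in each line against the mean log2(value + 5) of the fibroblast list, coloured by group, with circles, squares and triangles for lines 1, 2 and 3. The BC XX lines lie at 10.46 to 11.61 on the fibroblast axis and all others at or below 9.76, and the 3 BC XX lines hold *Tfap2c* values of 1519, 1324 and 1007 in order of rising fibroblast level.

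*Dppa3* encodes STELLA, a protein that shields methylated DNA from oxidation in the zygote and is a classic marker of nascent germ cells, at chr6:122576428-122580290 on the plus strand. Its scaled reads were 2069, 2425 and 1823 in BC XX lines, 2515, 2885 and 2231 in BC XY lines, and 2789 and 3135 in BC XO lines. They were 3012, 2101 and 3061 in CB XX lines and 2559, 4924 and 3744 in CB XY lines. The highest values, 4924 and 3744, belonged to the lines labelled CB XY 2 and 3, and both BC XO lines were above all BC XX lines, as were 23.5% of all genes. For *Dppa3* the log2 fold change was -0.35 in XX against XY (95% interval -0.77 to 0.07, adjusted p = 0.302), -0.50 in BC XX against BC XO (adjusted p = 0.24) and -0.51 in BC XY against CB XY (unadjusted p = 0.0357, adjusted p = 0.23). Without the lines labelled CB XY 2 and 3, that of *Dppa3* was -0.10 in XX against XY and -0.02 in BC XY against CB XY.

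For CB XX against CB XY the log2 fold change of *Dppa3* was -0.43 (95% interval -0.90 to 0.05, adjusted p = 0.321), and it was 0.07 without the lines labelled CB XY 2 and 3. In these 2 lines the median of the 780 chromosome 6 genes was 0.29 and 0.25 above their mean on the log2 scale, and in CB XX 1 it was 0.23 above. The next highest line was BC XX 2 with 0.12. After subtraction of chromosome medians, *Dppa3* differed by -0.31 between BC XY and CB XY lines on the log2 scale (adjusted p = 0.351). *Dppa3* sits in a cluster with *Nanog* and *Gdf3* that is active in ES cells. Of its 5 or 6 neighbours tested from a list of 7, none passed in any of the 8 comparisons. Since 0.00615% to 7.15% of all genes passed in them, that count does not set the neighbours apart from other genes.

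**Figure D4:**
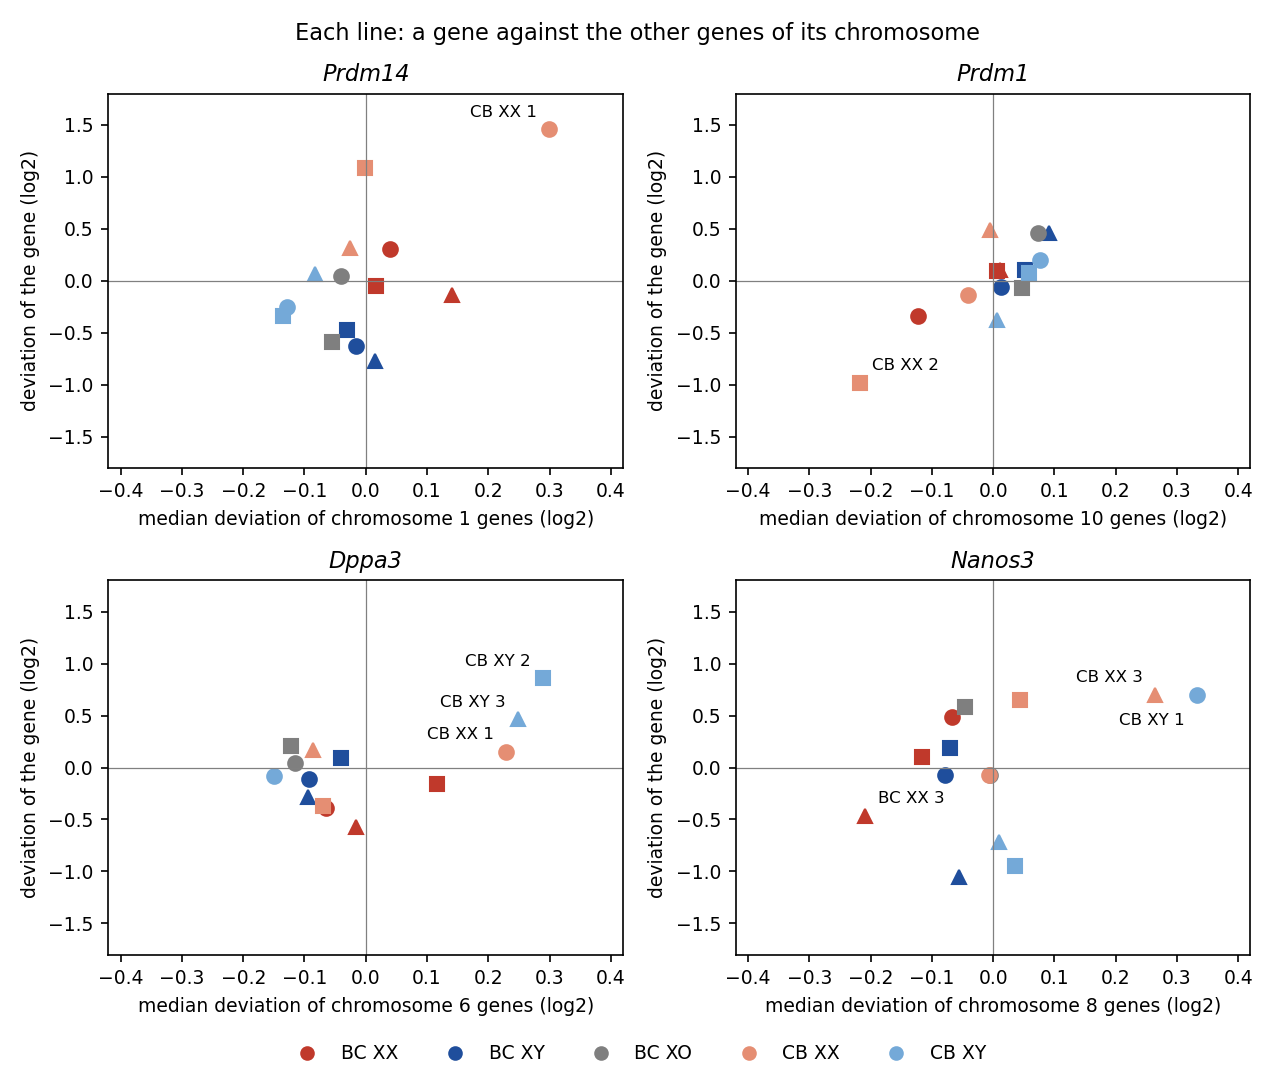
For *Prdm14*, *Prdm1*, *Dppa3* and *Nanos3*, the deviation of the gene from its own mean in each line (log2, vertical) against the median deviation of all tested genes on its chromosome (log2, horizontal), coloured by group, with circles, squares and triangles for lines 1, 2 and 3. Named lines have a chromosome median beyond 0.2 in either direction, such as CB XX 1 at 0.30 for chromosome 1 and CB XY 2 at 0.29 for chromosome 6.

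*Nanos3* encodes an RNA-binding repressor that keeps migrating germ cells alive, at chr8:86697632-86700451 on the minus strand. Its scaled reads were 48.2, 35.8 and 22.6 in BC XX lines, 31.2, 38.2 and 13.4 in BC XY lines, and 31.1 and 51.9 in BC XO lines. They were 31.3, 54.8 and 56.9 in CB XX lines and 56.5, 14.7 and 18.2 in CB XY lines. The groups overlapped throughout, and *Nanos3* had the widest spread of the 7, with an SD within groups of 0.62 on the log2 scale, wider than that of 91.6% of all genes tested. The log2 fold change was 0.55 for XX against XY lines (95% interval -0.13 to 1.24, adjusted p = 0.321) and 0.75 for CB XX against CB XY (95% interval -0.22 to 1.72, adjusted p = 0.402). Without the lines labelled CB XY 2 and 3 the latter turned to -0.27. The 2 highest lines, CB XX 3 and CB XY 1, were also those with the highest median over 814 chromosome 8 genes (0.26 and 0.33 above the mean on the log2 scale).

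*Dnd1* encodes an RNA-binding protein whose loss causes germ cell death and, in some strains, testicular tumours. It lies at chr18:36923325-36925868 on the minus strand and overlaps *Wdr55* on the other strand, and whether reads were counted by strand is not given in the sources used here. Its scaled reads were 333, 195 and 120 in BC XX lines, 232, 269 and 237 in BC XY lines, and 282 and 273 in BC XO lines. They were 212, 253 and 227 in CB XX lines and 422, 233 and 218 in CB XY lines. Of the 14 lines, 11 lay between 195 and 282, with CB XY 1 and BC XX 1 above and BC XX 3 below. XX and XY lines differed by -0.28 on the log2 scale (95% interval -0.79 to 0.22, adjusted p = 0.495).

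*Kit* encodes the receptor tyrosine kinase for KIT ligand, which migrating germ cells need, at chr5:75970941-76052747 on the plus strand. Its scaled reads were 1723, 1679 and 1902 in BC XX lines, 896, 2117 and 2455 in BC XY lines, and 2971 and 1839 in BC XO lines. They were 2273, 2032 and 1789 in CB XX lines and 1939, 2790 and 2012 in CB XY lines. BC XY 1 was the lowest line by far, and BC XO 1 the highest. The log2 fold change of *Kit* between XX and XY lines was -0.03 (95% interval -0.50 to 0.44, adjusted p = 0.955), which spans folds of 0.709 to 1.36, and none of the 8 comparisons gave an adjusted p under 0.503.

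Among themselves the 7 genes varied in different lines. After removal of group means, *Tfap2c* and *Kit* had a Pearson r of 0.74 over the 14 lines and *Nanos3* and *Dnd1* of 0.73. *Prdm14* and *Tfap2c* had 0.56. The lowest values were -0.51 for *Nanos3* and *Kit* and -0.46 for *Prdm14* and *Prdm1*. These are descriptions over lines that share culture and depth. Correlations with genes outside the 7 were taken without removal of group means, so they include differences between groups. Those printed were picked as the highest of all genes ranked over only 14 lines. High values can arise from that choice alone, and none was tested. The genes most like *Prdm14* over the 14 lines, among 12619 with a mean of at least 50, were *Cmtm7* (r = 0.943), *Gpat2* (0.93) and *Otud5* (0.918). Those most like *Tfap2c* were *Sik1* (0.962), *Islr2* (0.955) and *Jakmip1* (0.95), and those most like *Kit* were *Frrs1* (0.927), *Igf2bp2* (0.921) and *Med15* (0.912). Among those most like *Dnd1* were *Apbb1* (0.879) and *Rpl37* (0.876).

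For *Prdm1*, *Dppa3* and *Nanos3*, a gene of the same chromosome was the most alike, and how often this holds for other genes was not taken. *Mcu* on chromosome 10 came first for *Prdm1* (0.931, followed by *Ncapg2* with 0.915 and *Phlpp2* with 0.886). *B4galnt3* and *Slc25a18*, both on chromosome 6, came first for *Dppa3* (0.883 and 0.877, followed by *Fam160b2* with 0.874), and *Tma16* on chromosome 8 for *Nanos3* (0.865, followed by *Tor4a* with 0.845 and *Tyms* with 0.839).

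The inducing signals upstream of the 7 genes were lower in CB XX than in CB XY lines where they passed the test. Of 19 genes of the BMP and WNT response tested, 3 fell and 0 rose in CB XX against CB XY lines, with a median of -0.23 against -0.02 over all genes, of which 1.46% fell and 2.11% rose. *Wnt3*, the ligand that makes epiblast cells competent, had 21.3, 36.6 and 68.4 scaled reads in CB XX lines and 355, 90.9 and 215 in CB XY lines (log2 fold change -2.19, adjusted p = 0.0265). *Bmp4*, the main inducing ligand, had 816, 637 and 432 scaled reads in CB XX lines and 755, 2751 and 1981 in CB XY lines (-1.39, adjusted p = 0.0456). The highest *Bmp4* values were in the lines labelled CB XY 2 and 3, and without them the log2 fold change was -0.31 (adjusted p = 0.73), whereas that of *Wnt3* was -3.06 (adjusted p = 0.0402). *T*, the primitive streak factor that acts below WNT3 in germ cell induction, had 76.8, 21.9 and 367 scaled reads in CB XX lines and 1933, 418 and 1347 in CB XY lines (-3.47, adjusted p = 0.0387, and without those 2 lines -4.37 with an adjusted p of 0.126).

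In other comparisons fewer signal genes passed. *Wnt3* alone of the 19 passed in XX against XY lines (-1.68, adjusted p = 0.0361, and 0.0486 without CB XY 2 and 3), where 1.99% of all genes fell and 3.21% rose. The receptor gene *Bmpr2* was higher in BC XX than in BC XY lines (1.21, adjusted p = 0.0261) and than in CB XX lines (1.23, adjusted p = 0.0257), with 0.20 and 0.50 and no call when the fibroblast level was a covariate. In these comparisons 4.46% and 4.25% of all genes were higher in BC XX lines. *T* was higher in BC XX than in CB XX lines (3.23, adjusted p = 0.0389, and 1.98 with an adjusted p of 0.677 under that covariate). Of 5 primitive streak markers, *T* among them, 1 fell in CB XX against CB XY lines. The 5 summed to 387 to 1200 scaled reads in CB XX and 1040 to 5030 in CB XY lines, ranges that overlap, and their part in the *Prdm14* difference was not tested.

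Of 6 genes that PRDM14 is known to repress, 2 fell and 0 rose in XX against XY lines, where 1.99% of all genes fell and 3.21% rose, and their log2 fold changes had a median of -0.52 against -0.03 over all genes. The 2 that fell were the *de novo* DNA methyltransferase genes *Dnmt3a* (-0.62, adjusted p = 0.0442) and *Dnmt3b* (-1.35, adjusted p = 0.0171). The FGF receptor genes *Fgfr1* and *Fgfr2* had -0.008 and -0.13 (adjusted p = 0.969 and 0.658). *Fgfr1* had 0.37 in the BC cross (adjusted p = 0.44). In the CB cross, *Dnmt3b* had 3923, 2815 and 4403 scaled reads in XX lines and 15534, 11760 and 12820 in XY lines, a log2 fold change of -1.86 (adjusted p = 0.0138). Each CB XX line was far below each CB XY line, an order that 11.5% of all genes tested showed. It is opposite to that of *Prdm14*, and a link between the levels of *Prdm14* and *Dnmt3b* was not tested. In the BC cross the log2 fold change of *Dnmt3b* was -0.84, which did not pass (adjusted p = 0.18). Without the lines labelled CB XY 2 and 3, the log2 fold change of *Dnmt3b* was -2.09 for the CB cross (adjusted p = 0.112), and over both crosses *Dnmt3a* and *Dnmt3b* had log2 fold changes of -0.73 and -1.37 (adjusted p = 0.0687 and 0.0673). With the fibroblast level as a covariate, the log2 fold changes over both crosses were -0.63 for *Dnmt3a* (adjusted p = 0.143) and -1.91 for *Dnmt3b* (adjusted p = 0.00632). The BC XO lines had 8456 and 16879 scaled reads of *Dnmt3b*.

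Genes that germ cells switch on later were higher in XX lines where they passed. Of 10 such genes, 2 passed as higher in XX against XY lines, 1 in BC and 3 in CB, and 0 passed as lower in any of these. Of all genes, 3.21%, 4.46% and 2.11% passed as higher. The 10 had median log2 fold changes of 0.31, 0.08 and 0.55, against -0.03, -0.04 and -0.02 over all genes. Some of the 10 leaned the other way, such as *Tdrd1* with -0.59 in XX against XY lines and -0.78 in BC (adjusted p = 0.257 and 0.137). *Hormad1*, a meiotic chromosome axis gene, rose in XX against XY lines by 2.39 (adjusted p = 0.000395), in BC by 2.08 (adjusted p = 0.00294) and in CB by 2.70 (adjusted p = 0.00266), and it was higher in BC XX than in BC XO lines by 2.63 (adjusted p = 0.00646). *Dazl*, an RNA-binding regulator of germ cell development, rose by 1.57 in XX against XY lines (adjusted p = 0.0467). In the CB cross, *Mael*, a piRNA pathway gene, rose by 2.07 (adjusted p = 0.017) and *Taf7l*, an X-linked spermatogenesis gene, by 2.62 (adjusted p = 0.0173). Without CB XY 2 and 3, *Hormad1* still passed over both crosses and in CB (adjusted p = 0.000706 and 0.00128), whereas *Dazl*, *Mael* and *Taf7l* did not (adjusted p = 0.11, 0.0629 and 0.0597), with log2 fold changes of 1.69, 2.65 and 3.19, no smaller than with all lines. With the fibroblast level as a covariate, *Hormad1* had log2 fold changes of 1.75 in BC XX against BC XY (adjusted p = 0.314) and 2.38 in BC XX against BC XO (adjusted p = 0.0886), and *Dazl* of 1.97 in XX against XY (adjusted p = 0.0575). *Ddx4*, the vasa gene that marks gonadal germ cells, was between 354 and 780 scaled reads in all 14 lines, with a log2 fold change of -0.08 between XX and XY lines (adjusted p = 0.839).

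The partners of the 7 proteins showed no calls in any of the 8 comparisons. None of 9 tested chromatin and transcription partners of PRDM14 and PRDM1, such as *Cbfa2t2* and *Prmt5*, passed, nor did any of 9 NANOS and DND1 partners, such as *Pum2* and *Cnot1*, or any of the 10 KIT signalling genes. Since 0.00615% to 7.15% of all genes passed in these comparisons, 0 calls in lists of this length does not set the partners apart from other genes. The largest differences for PRDM partners between CB XX and CB XY lines were *Tfap2a* (0.85, adjusted p = 0.0941) and *Ehmt2* (-0.67, adjusted p = 0.204). *Kitl*, the KIT ligand, had a log2 fold change of 0.90 in BC XX against CB XX lines (adjusted p = 0.0671). Of 12 genes shared by early germ cells and naive ES cells, such as *Nanog* and *Ifitm3*, none passed in XX against XY lines or within either cross. In BC XX against CB XX lines, these 12 genes had a median log2 fold change of -0.60, against -0.01 over all genes. *Klf2*, a naive state factor, was the 1 gene of the 12 that passed there (-1.46, adjusted p = 0.0219). Of all genes, 2.9% passed as lower in BC XX lines. With the fibroblast level as a covariate, *Klf2* had -0.90 (adjusted p = 0.62). It was lower in BC XY than in CB XY lines too (-1.63, adjusted p = 0.0388). That difference was -1.91 without CB XY 2 and 3 (adjusted p = 0.269) and -1.75 with the fibroblast level as a covariate (adjusted p = 0.0113).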

How the data were processed

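Each of the 14 lines is 1 sample from its own blastocyst. According to the study's methods and processing notes, stranded total RNA reads were aligned to mm9 with TopHat2 and compared with Cuffdiff. The deposited values are a read signal per gene that the authors had scaled to a common depth. Of the low values, 98.5% to 98.9% are whole multiples of a step (within 0.1 of it), but not every value is, so that no test for read counts was used. Values were analysed as log2(value + 5) with limma 3.58.1 (trended variance) in R 4.3.3 and Python 3.11.15, p-values were adjusted by Benjamini-Hochberg across the genes of each fit, and the FDR was 0.05. Fold changes on this scale understate changes of low genes.

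XX and XY were compared over 12 lines (genes at 10 or more in at least 6 lines), and the other contrasts in a model of 5 groups on 14 lines (at least 2 lines). Left out were 15 genes listed at 0 throughout a group and at 100 or more elsewhere, *Jarid2* among them. Positions come from GENCODE vM1 on NCBIM37 (mm9), and primer sequences from the study's supplement. The CB XX columns name the group only. The fibroblast level is the mean log2(value + 5) of 25 genes. A chromosome median is the median over its tested genes of a line's deviation from each gene's mean. The 7 genes and all gene lists were chosen with earlier results of these data known. Named genes were the 7, list genes past the FDR or with large changes, and the 3 genes most correlated with each of the 7 over 14 lines, of which 1 is not reported here. *Ddx4*, *Fgfr1*, *Fgfr2* and the genes named as examples without values were picked after the values were seen. List genes were refitted without CB XY 2 and 3 and with the fibroblast covariate as alternatives added after seeing the data. The fits were tested on simulated data with 200 changed genes.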

Additional observations from a re-analysis of the deposited data

Results flagged for a closer look

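Among 14 sets of 6 XX or 6 XY lines (7 genes by 2 sexes), 2 held a line far from the rest by Dixon's ratio of gap to range on the log2 scale at its 95% critical value. Chance alone would give about 1 such set in 20. *Dnd1* was highest in CB XY 1 (ratio 0.686), at 422 scaled reads where the other XY lines had 218 to 269. *Kit* was lowest in BC XY 1 (ratio 0.679), at 896 scaled reads where the other XY lines had 1939 to 2790.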

How the results depend on the processing

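The 2 calls among the 7 genes, *Prdm14* in CB XX against CB XY and *Tfap2c* in BC XX against CB XX, kept their sign under every alternative run. Both were 0 at an FDR of 0.01. The count in CB XX against CB XY was 0 without the lines labelled CB XY 2 and 3, and that in BC XX against CB XX was 0 with no filter and with the fibroblast level as covariate. With chromosome medians subtracted, neither call passed (adjusted p = 0.0739 for *Prdm14* and 0.0508 for *Tfap2c*). In XX against XY the count rose from 0 to 1 with that covariate or with the cross as covariate. Leaving out 1 line gave counts of 0 to 1 in XX against XY, 0 to 1 in CB XX against CB XY and 0 to 2 in BC XX against CB XX. A planned test for read counts was not run, since the values are not whole reads.

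Log2 fold changes were followed through the alternatives for *Prdm14* in all 8 comparisons and for the other genes in some comparisons only. Sign changes outside these are not listed. Among those followed, these changed sign, none past the threshold either way. *Kit* in XX against XY had 0.12 without CB XY 2 and 3, 0.26 with the fibroblast covariate and 0.028 with chromosome medians subtracted. With 1 line left out, *Kit* ran from -0.246 to 0.081. *Tfap2c* with the fibroblast covariate had 0.51 in BC XX against BC XY and 0.10 in the interaction. *Dppa3* and *Nanos3* in CB XX against CB XY had 0.070 and -0.27 without CB XY 2 and 3. *Prdm14* in BC XX against BC XO ran from -0.013 to 0.62 with 1 line left out. The cause was not tested.

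Counts over all genes moved more. In XX against XY, 797 genes passed, 183 at an FDR of 0.01, 313 without CB XY 2 and 3, 452 with the fibroblast covariate, 1697 with the cross covariate, and 410 to 1746 with 1 line left out. In BC XX against BC XY the 927 became 195 at 0.01 and 8 with the fibroblast covariate (229 to 992 with 1 line left out). In CB XX against CB XY the 581 became 114 at 0.01 and 133 without CB XY 2 and 3 (145 to 653). In BC XX against BC XO the 758 became 37 at 0.01, 411 with no filter and 31 with the fibroblast covariate (5 to 990). The 1 gene of BC XO against BC XY became 0 at 0.01, with a filter at 50 and with the fibroblast covariate (0 to 1). The 12 of the interaction became 0 at 0.01, 4 with no filter, 7 with a filter at 50 and 2 without CB XY 2 and 3 (0 to 25). In BC XX against CB XX the 1162 became 150 at 0.01, 586 with no filter and 44 with the fibroblast covariate (119 to 2576). In BC XY against CB XY the 104 became 3 at 0.01, 10 with no filter, 2 without CB XY 2 and 3 and 1070 with the fibroblast covariate (2 to 8).

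The replicate block could be fitted only in BC lines, where same-numbered lines had correlations of -0.494 to 0.254 after removal of group means. With group means removed, the 2 BC XO lines mirror each other. These values therefore cannot show whether same-numbered lines share a preparation. With the replicate block, 505 genes passed in BC XX against BC XY and 11 in BC XX against BC XO, and 0 of the 7 genes in either. *Prdm14* had an adjusted p of 0.12 in the former. A lone line left in a group was assumed to vary like the other groups. With 3 lines a group, the standard errors of the 7 genes within a cross run from 0.22 (*Dppa3*) to 0.45 (*Nanos3*, 0.51 against the 2 XO lines) on the log2 scale, which limits the differences that could be seen.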
